A study of Mus musculus with 6 samples.

Results

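Pde3b and 9 further genes of the cyclic nucleotide phosphodiesterase family were examined in splenic monocytes of mice gavaged with water or vancomycin. The genes were taken by symbol (Pde3b, Pde3a, Pde4a, Pde4b, Pde4c, Pde4d, Pde7a, Pde7b, Pde8a and Pde2a) and make up 10 of the 46072 gene identifiers in the deposited tables, each on a single identifier. Pde3b was chosen by its own measured levels, which were much higher after vancomycin in these same libraries, so its difference is described here without a test. The other members set it beside the family. All mice were female C57BL/6 mice, given in the study's methods as 8 to 10 weeks old at supply. The Con group (n = 3 libraries) received water by gavage, and the Van group (n = 3 libraries) received 2 mg of vancomycin per mouse and day as 2 gavages of 1 mg, each for 6 days. A rest without antibiotic followed, given as 8 days for the sequenced mice in the study's account and as 6 to 8 days in the labels, and monocytes were enriched from the spleen by magnetic removal of other cells and sequenced as polyA RNA without stimulation. The study took 3 mice per group for sequencing, as many as there are libraries.

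Phosphodiesterases break down the second messengers cAMP and cGMP and so end their signal. The PDE4, PDE7 and PDE8 enzymes act on cAMP, whereas PDE2 and PDE3 enzymes act on both messengers. PDE2 is stimulated by cGMP, and PDE3 is inhibited by it. In monocytes and macrophages, a raised cAMP level acts through protein kinase A (PKA) and the EPAC proteins and dampens the release of cytokines such as TNF, and PDE4B is well known for limiting that brake. PDE3B is a membrane-bound enzyme, best known from fat and liver cells, where insulin activates it through AKT, and it can form a complex with phosphoinositide 3-kinase gamma.

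The members share the histidine and aspartate signature of the catalytic domain, which the choice of genes did not use. A stretch of 36 coding bases around it was read from GENCODE M21 transcripts (build GRCm38) and is shown for the members with the most informative values, 5′ to 3′ on the coding strand. Capitals mark the codons of the histidine, aspartate, histidine and final asparagine or glutamine of the signature. It occurred once in the longest coding transcript of each of the 10 members.
Pde3b: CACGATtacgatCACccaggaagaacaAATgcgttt
Pde3a: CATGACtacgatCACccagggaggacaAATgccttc
Pde8a: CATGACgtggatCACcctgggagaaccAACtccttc
Pde7b: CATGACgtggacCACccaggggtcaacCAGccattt
Pde4b: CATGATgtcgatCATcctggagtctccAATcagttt
Pde2a: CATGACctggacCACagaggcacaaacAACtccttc
The Pde3b stretch lies at chr7:114526921-114526956 (+ strand), within a coding exon. Of its 36 bases, 30 were identical in Pde3a, the nearest relative, 24 in Pde8a and in Pde4b, and 20 in Pde7b and in Pde2a. No run of 75 bases of the Pde3b transcripts occurred in a transcript of another gene, and no exon of another gene overlapped its exons. The same held for Pde4a, Pde4b, Pde4d, Pde7b and Pde8a. The exons of Pde7a overlap those of Gm16093 and those of Pde3a overlap those of Gm28523, each on the opposite strand, and Pde4c shares a short run with Gm21269. Pde2a shares sequence with a second annotated gene of the same symbol and with Arap1. The library kit keeps the strand, but its use in counting is not stated, so reads of these genes cannot be told apart with certainty from those of the genes they overlap.

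The libraries held estimated total counts between 43383919 and 61834407. Levels are given as CPM (counts scaled to library size with TMM normalization) where groups are compared and as FPKM, which also divides by transcript length, where genes are compared with each other. A gene was counted as called where the Benjamini-Hochberg adjusted p of edgeR's quasi-likelihood test did not exceed 0.05. Between Van and Con this took in 322 of 16138 genes (2.00%), with 1.08% called higher in Van and 0.917% called lower. Monocyte markers were present in all libraries, with a summed level of 23014 to 23985 CPM over 12 genes in Con and 22284 to 22939 CPM in Van. Of these 12 genes, Ccr2, the chemokine receptor of classical monocytes, fell from 731 ± 44.8 to 411 ± 83.7 CPM (SD, n = 3 libraries each, edgeR adjusted p = 0.0283), Fcgr1 also fell (edgeR adjusted p = 0.0328), and the other 10 did not pass. The summed level of 8 erythroid markers was 66.3 to 131 CPM in Con and 217 to 477 CPM in Van, with 4 of the 8 called higher (Alas2, Hba-a1, Hbb-bs and Hbb-bt) against 1.08% of all genes. That of 7 NK cell markers was 26.1 to 39.5 CPM in Con and 14.9 to 21.9 CPM in Van. Nearly all of this sum was Klrk1, called lower, at 24.7 to 38.2 CPM in Con and 14.0 to 20.8 CPM in Van. The other NK cell genes were each at or below 1.133 CPM in every library. Of those tested, Klrb1c had a higher estimate (log2 fold change 0.43), Gzma and Eomes lower ones. B cell markers summed to 18.9 to 22.1 CPM in Con and 15.2 to 18.2 CPM in Van, while the ranges of the T cell, plasma cell, neutrophil, dendritic cell, platelet, mast cell and red pulp macrophage lists overlapped between the groups. Clec9a, on the dendritic cell list, was called lower, and its exons overlap those of Clec1b. The T cell genes Cd3e, Cd3d and Cd3g were each at or below 1.23 CPM in every library, while Cd4 was at 23.2 to 39.7 CPM and Cd8a at 4.65 to 10.3 CPM. The other 4 genes of the T cell list were at or below 1.45 CPM, and the neutrophil marker Ly6g was at 0 counts throughout. In such enriched cells, fewer cells of a type and less RNA per cell cannot be told apart. The part of the erythroid, NK cell, B cell, dendritic cell and monocyte subset genes in the phosphodiesterase results was not tested.

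Pde3b, on chromosome 7 of GRCm38 from 114415281 to 114539251, was measured at 15.4, 17.2 and 15.2 CPM in Con (replicates 1 to 3) and 59.8, 54.9 and 54.2 CPM in Van (replicates 1 to 3). Every Van library was above every Con library, and the lowest Van value was 3.15 times the highest Con value. The mean was 15.9 ± 1.08 CPM (SD) over the 3 Con libraries and 56.3 ± 3.10 CPM over the 3 Van libraries, a 3.53-fold higher level, with a log2 fold change of 1.82 (SE 0.08 in edgeR). Its log2 fold change was the 8th highest among the 12684 genes whose mean was 1 CPM or more, and this place is part of how the gene was picked. The deposited estimated counts behind these values ran from 659 to 1030.3 in Con and from 2797 to 3662 in Van. On the FPKM scale the mean was 2.06 ± 0.120 FPKM (SD) over the 3 Con libraries and 7.26 ± 0.358 FPKM over the 3 Van libraries, a ratio of 3.53. With any single library left out, the log2 fold change stayed between 1.77 and 1.88.

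**Figure D1:**
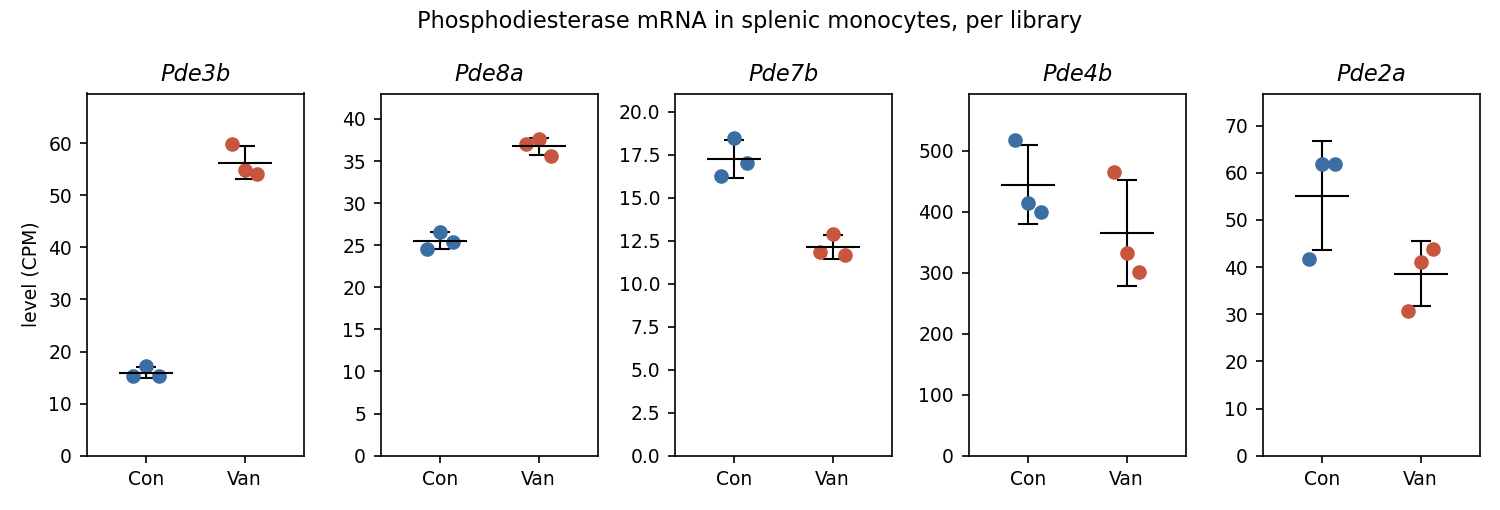
Level in CPM (vertical axes, each from 0 and on its own scale) of 5 phosphodiesterases in the 3 Con (blue) and 3 Van (red) libraries, with a dot per library and the mean ± SD in black. The groups are apart for Pde3b, Pde8a and Pde7b and overlap for Pde4b and Pde2a.

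The closest relative of Pde3b was hardly detected. Pde3a, which encodes the PDE3 enzyme of heart and platelets, was measured at 0.212, 0.484 and 0.301 CPM in Con (replicates 1 to 3) and 0.196, 0.0588 and 0.160 CPM in Van (replicates 1 to 3), from 3.49 to 29.4 estimated counts per library. A level of 3 estimated counts corresponds to 0.0490 to 0.0693 CPM, counting error only, and Van replicate 2 lay close to it. The estimated counts exceed the estimated number of fragments, so 3 fragments correspond to a higher level than this. Its log2 fold change was -1.24 (SE 0.61, edgeR adjusted p = 0.358), and the 95% interval ran from -2.63 to 0.14. Per transcript length, Pde3a was at most 0.0377 FPKM in any library and Pde3b at least 1.98 FPKM.

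Of the 9 members other than Pde3b, 8 had enough counts to be tested and 2 were called, Pde8a as higher and Pde7b as lower, against 2.00% of all genes (1.08% higher and 0.917% lower). With DESeq2, which called 7.53% of all genes, 3 of the 8 were called, the third being Pde2a. With limma on log2(FPKM + 1) values, which called 0.243% of all genes, 1 was called, Pde8a. The values of the groups did not overlap for 4 of the 8, Pde8a, Pde7b, Pde4d and Pde3a, against 22.5% of all genes tested. The median log2 fold change of the 8 was -0.21, beside a median of 0.00 over all genes tested. An exact permutation test of 3 libraries against 3 cannot give a two-sided p below 0.10.

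Pde8a encodes a cAMP-specific enzyme with a very high affinity for its substrate, and it lies on chromosome 7 from 81213596 to 81334533. It was measured at 24.6, 26.6 and 25.4 CPM in Con (replicates 1 to 3) and 37.0, 37.6 and 35.6 CPM in Van (replicates 1 to 3). No Van library was as low as any Con library. The mean was 25.5 ± 0.984 CPM (SD) over the 3 Con libraries and 36.7 ± 1.02 CPM over the 3 Van libraries, a log2 fold change of 0.52 (SE 0.07, edgeR adjusted p = 0.0131). Leaving out 1 library gave log2 fold changes of 0.50 to 0.55, with the call lost without Con replicate 3 (edgeR adjusted p = 0.0721) and without Van replicate 2 (edgeR adjusted p = 0.0758). Its paralog Pde8b, which was not among the members, lay at 9.94 ± 0.757 CPM (SD) over the 3 Con libraries and 6.99 ± 1.11 CPM over the 3 Van libraries, in the opposite direction, with a log2 fold change of -0.51 (SE 0.14, edgeR adjusted p = 0.115).

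Pde7b, a cAMP-specific enzyme on chromosome 10 from 20398004 to 20725078, was the member that edgeR called lower. It was measured at 16.3, 18.5 and 17.0 CPM in Con (replicates 1 to 3) and 11.8, 12.9 and 11.7 CPM in Van (replicates 1 to 3). The highest Van value was below the lowest Con value. The mean was 17.3 ± 1.10 CPM (SD) over the 3 Con libraries and 12.1 ± 0.685 CPM over the 3 Van libraries, a log2 fold change of -0.51 (SE 0.09, edgeR adjusted p = 0.0321). The log2 fold change was -0.55 to -0.46 with 1 library left out, and the adjusted p from edgeR was then between 0.0593 and 0.123, so that each of the 6 libraries was needed for the call. Its paralog Pde7a was at 29.4 ± 1.21 CPM (SD) over the 3 Con libraries and 26.6 ± 2.67 CPM over the 3 Van libraries, with a log2 fold change of -0.14 (SE 0.09, edgeR adjusted p = 0.469) and overlapping groups, and the log2 fold change was -0.22 to -0.08 with 1 library left out.

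The genes of the PDE4 subfamily did not pass the test. Pde4b, the PDE4 gene that inflammatory stimuli induce in monocytes, had by far the highest counts of the members and was at 518, 414 and 400.3 CPM in Con (replicates 1 to 3) and 465, 332 and 300.4 CPM in Van (replicates 1 to 3). The groups overlapped, with Van replicate 1 above Con replicates 2 and 3. Its log2 fold change was -0.28 (SE 0.16, edgeR adjusted p = 0.443), with a 95% interval from -0.65 to 0.09, and the log2 fold change ran from -0.49 to -0.16 with 1 library left out. Pde4a was at 15.8 ± 2.53 CPM (SD) over the 3 Con libraries and 16.9 ± 0.846 CPM over the 3 Van libraries, a log2 fold change of 0.09 (SE 0.12, edgeR adjusted p = 0.786), and it took the opposite sign (-0.022) without Con replicate 3. Pde4d was low, between 1.35 and 1.69 CPM in Con and between 1.99 and 2.27 CPM in Van. Its Van libraries were all above its Con libraries, and the log2 fold change was 0.47 (SE 0.21, edgeR adjusted p = 0.304). Pde4c was not tested, with 0 to 15.5 estimated counts in Con and 2.67 to 7.15 in Van. It was listed at 0 in Con replicate 2, which does not show that it was absent.

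Pde2a, which encodes the enzyme that cGMP stimulates, was at 41.8, 61.9 and 61.9 CPM in Con (replicates 1 to 3) and 30.7, 41.2 and 43.9 CPM in Van (replicates 1 to 3). Con replicate 1 lay below Van replicate 3, so the groups overlapped. The log2 fold change was -0.52 (SE 0.17, edgeR adjusted p = 0.190), the 95% interval was -0.91 to -0.12, and with DESeq2 the adjusted p was 0.0308. With the replicate number as a block in edgeR, the log2 fold change was -0.51 (SE 0.07, edgeR adjusted p = 0.0447). Of 14 phosphodiesterase genes outside the members, 5 were tested and 0 were called by edgeR, against 2.00% of all genes. Pde8b and Pde6d, 2 of the 5, had an unadjusted p under 0.05 from edgeR, against 16.5% of all genes. DESeq2 called 1 (Pde8b, as lower), against 7.53% of all genes, and limma called 0, against 0.243%. The most abundant of them was Pde1b, a calcium and calmodulin dependent enzyme, at 17.2 ± 0.966 FPKM (SD) over the 3 Con libraries and 15.1 ± 1.66 FPKM over the 3 Van libraries, with a log2 fold change of -0.20 (SE 0.09, edgeR adjusted p = 0.304).

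**Figure D2:**
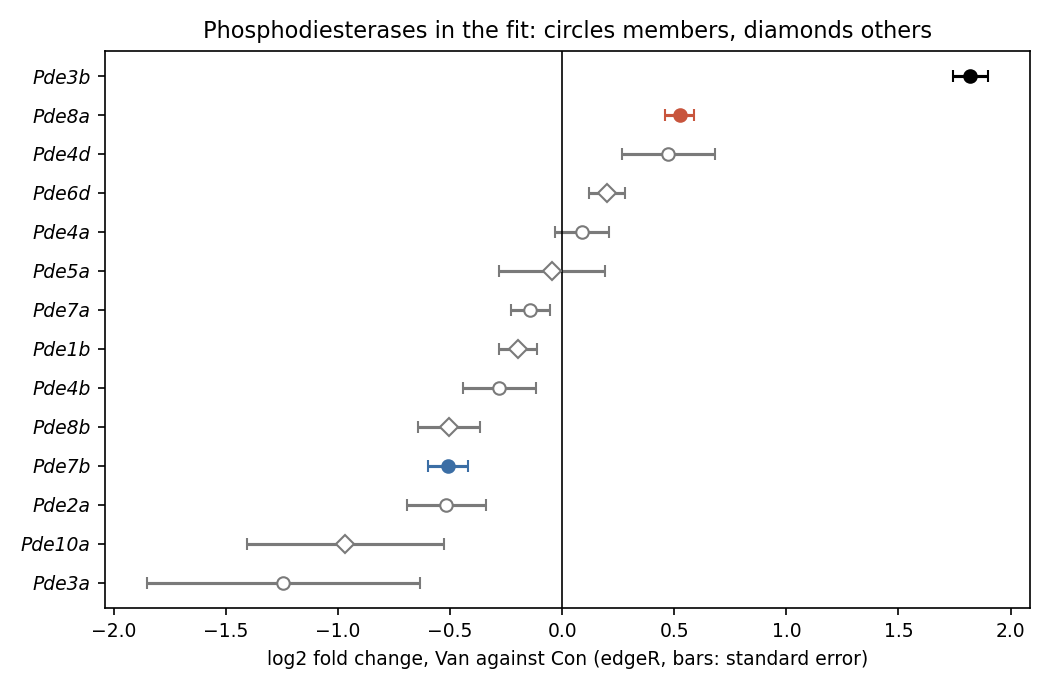
Log2 fold change of Van against Con with its standard error (horizontal axis, edgeR) for the 9 members with enough counts for the fit (circles) and 5 further phosphodiesterases (diamonds). Pde3b is in black and given without a test, filled coloured symbols passed an adjusted p of 0.05, and open grey symbols did not; Pde3b lies at 1.82, Pde8a at 0.52 and Pde7b at -0.51.

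On the length-scaled FPKM values, the order of the members in Con was Pde4b, Pde2a, Pde8a, Pde7a, Pde7b, Pde4a, Pde3b, Pde4d, Pde4c and Pde3a. Pde4b stood at 98.3 ± 13.4 FPKM and Pde3b at 2.06 ± 0.120 FPKM (SD, n = 3 Con libraries), and Pde2a ranged from 8.20 to 12.5 FPKM. The Con ranges of neighbours in this order overlapped for Pde7b and Pde4a and for Pde4c and Pde3a, and were apart for the other pairs. Pde3b was the 7th of the 10 in each Con library. In Van its mean was the 4th, at 7.26 ± 0.358 FPKM, after Pde4b, Pde8a at 8.53 ± 0.379 FPKM and Pde2a at 7.72 ± 1.43 FPKM. The Van ranges of Pde8a and Pde2a overlapped, as did those of Pde2a and Pde3b, while Pde7b moved from the 5th to the 7th place.

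**Figure D3:**
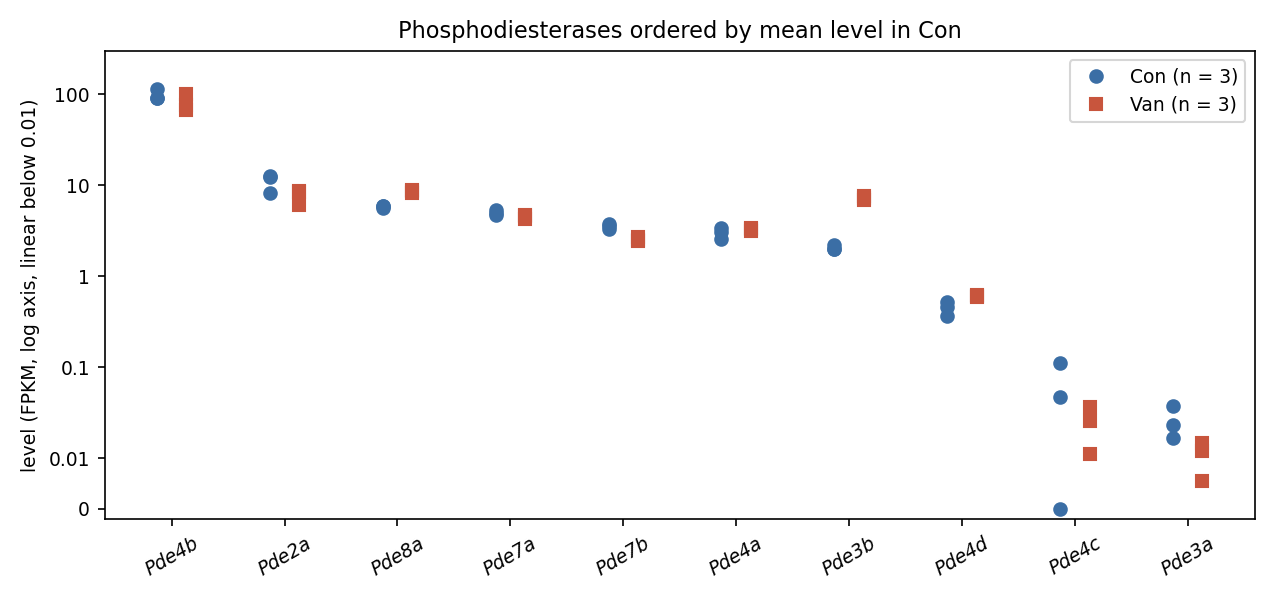
Level of the 10 members in FPKM (vertical axis, logarithmic above 0.01 and linear below it) in the 3 Con (blue circles) and 3 Van (red squares) libraries, ordered by the mean in Con. Pde3b is the 7th in Con at about 2 FPKM and lies within the range of Pde2a in Van.

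Pde3b took between 1.40% and 1.78% of the summed FPKM of the 10 members in the Con libraries and between 5.67% and 6.87% in the Van libraries. Pde4b alone made up 73.2% to 80.3% of that sum in Con and 66.1% to 75.2% in Van. The sum itself was 123 to 142 FPKM in Con and 101 to 135 FPKM in Van, so the ranges overlapped. Without Pde4b, the summed level was 27.9 to 33.0 FPKM in Con and 33.4 to 35.8 FPKM in Van, and Pde3b was 6.25% to 7.13% and 20.1% to 22.9% of it. These shares rest on the same values that picked Pde3b and are a description.

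Promoter windows of 250 bases before to 50 bases after a transcription start were given by RefSeq (GRCm38.p6) for 7 of the 10 members, and none of the 16 windows was of Pde3b. They were searched on both strands for the half-site TGACG of the cAMP response element, which CREB factors bind, and for the full element, TGACG followed directly by TCA, which contains the half-site. The half-site was found in 4 of the 16 member windows, against 20.8% of all 32851 windows, and the full element in 0, against 1.79% of all windows. The Pde8a window, chr7:81213015-81213314 on the + strand, held 1 half-site and is shown because Pde8a was the member called higher, 5′ to 3′, with the half-site in capitals.
Pde8a promoter: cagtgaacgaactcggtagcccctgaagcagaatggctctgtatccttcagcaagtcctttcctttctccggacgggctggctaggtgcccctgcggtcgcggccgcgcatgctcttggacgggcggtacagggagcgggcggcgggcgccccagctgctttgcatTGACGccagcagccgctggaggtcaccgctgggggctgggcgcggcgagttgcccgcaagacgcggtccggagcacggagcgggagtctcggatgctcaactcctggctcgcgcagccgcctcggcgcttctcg
The other 3 half-sites were in single windows of Pde4b, Pde2a and Pde4a, and the windows of Pde7b, Pde4c and Pde4d, 1 for each gene, held none.

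The genes that make, carry and read the cAMP signal were then set beside the phosphodiesterases. Of 65 such genes, 56 were tested and 5 were called by edgeR (4 higher and 1 lower in Van), against 2.00% of all genes tested. DESeq2 called 8 of them, adding Adrb1 as higher and Akap12 and Hrh2 as lower, against 7.53% of all genes. Limma on log2(FPKM + 1) values called 0, against 0.243% of all genes, with 16 at an unadjusted p under 0.05 in limma. In edgeR, 20 of the 56 had an unadjusted p under 0.05, against 16.5% of all genes tested. The median log2 fold change of the 56 was 0.06. Each of the 5 calls was lost in at least 5 of the 6 edgeR fits that left out a library, and 1 gene was then still called, Crem without Con replicate 1.

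Of 8 tested receptors that raise cAMP, 0 were called by edgeR or by limma, with 4 at an unadjusted p under 0.05 from edgeR (16.5% of all genes), and DESeq2 called 2, Adrb1 and Hrh2 (7.53% of all genes). Gpr65, a proton-sensing receptor and the receptor of this group with the highest FPKM, was at 92.6 ± 5.75 CPM (SD) over the 3 Con libraries and 101 ± 10.6 CPM over the 3 Van libraries, with overlapping groups. None of the 3 tested G protein subunits was called by edgeR, DESeq2 or limma, with 0 at an unadjusted p under 0.05, and Gnai2, the inhibitory subunit that was most abundant, had a log2 fold change of 0.05 (SE 0.05, edgeR adjusted p = 0.720). The 6 tested adenylate cyclases, which make cAMP, were also without a call by these tools and without an unadjusted p under 0.05 from edgeR. Adcy7, the main adenylate cyclase here by FPKM, was at 455 ± 9.10 CPM (SD) over the 3 Con libraries and 447 ± 40.1 CPM over the 3 Van libraries.

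Of 8 tested PKA subunits and inhibitors, 3 were called by edgeR and by DESeq2, against 2.00% and 7.53% of all genes, and 0 by limma, which called 0.243%. Prkar2a, a regulatory subunit, was measured at 47.4, 44.1 and 46.3 CPM in Con (replicates 1 to 3) and 56.0, 60.3 and 59.4 CPM in Van (replicates 1 to 3), a log2 fold change of 0.35 (SE 0.06, edgeR adjusted p = 0.0328). The inhibitor peptide genes Pkig and Pkib moved in opposite directions. Pkig rose, with 32.0 ± 0.658 CPM (SD) over the 3 Con libraries and 41.3 ± 1.78 CPM over the 3 Van libraries and a log2 fold change of 0.37 (SE 0.06, edgeR adjusted p = 0.0317), and Pkib fell, with 14.1 ± 0.422 CPM (SD) over the 3 Con libraries and 9.27 ± 0.795 CPM over the 3 Van libraries and a log2 fold change of -0.60 (SE 0.10, edgeR adjusted p = 0.0283). On FPKM values the log2 fold change of Pkib was smaller, at -0.30 with limma on log2(FPKM + 1) (limma adjusted p = 0.194). With a pseudocount of 0.1 it was -0.37 (limma adjusted p = 0.264). The most abundant subunit, Prkar1a, did not pass the test, with a log2 fold change of 0.11 (SE 0.06, edgeR adjusted p = 0.411). The EPAC genes Rapgef3 and Rapgef4 were both at or below 0.667 CPM in every library and neither was called by edgeR, DESeq2 or limma (0 at an unadjusted p under 0.05).

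All 8 CREB factors and coactivators had a higher estimate in Van, against 8004 of the 16138 genes tested. This held under each of the scalings and tests tried on the full set, all of which use the same 6 libraries. In edgeR, 6 of the 8 showed no overlap of the groups, against 22.5% of all genes, and Crem alone was called, against 2.00% of all genes. Crem encodes a CREB-related factor with both activating and repressing forms, including the cAMP-induced repressor ICER. It was measured at 9.35, 8.66 and 7.21 CPM in Con (replicates 1 to 3) and 15.1, 14.2 and 12.9 CPM in Van (replicates 1 to 3), a log2 fold change of 0.74 (SE 0.12, edgeR adjusted p = 0.0288). Its exons overlap those of Gm6225 on the opposite strand. Ep300, the coactivator with the highest FPKM, had a log2 fold change of 0.11 (SE 0.05, edgeR adjusted p = 0.316). Of 11 genes known to respond to cAMP, 0 were called by edgeR, DESeq2 or limma, against 2.00%, 7.53% and 0.243% of all genes. An unadjusted p under 0.05 from edgeR was found for 3 of the 11, against 16.5% of all genes. The most abundant, Nr4a1, was at 3371 ± 93.5 CPM (SD) over the 3 Con libraries and 3632 ± 675 CPM over the 3 Van libraries.

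Of 8 tested anchoring proteins, which hold PKA near its targets, 7 had a lower estimate, against 8134 of the 16138 genes tested. EdgeR called 0 (2.00% of all genes), with 3 at an unadjusted p under 0.05 (16.5% of all genes). DESeq2 called 1, Akap12, as lower (7.53% of all genes), and limma called 0 (0.243% of all genes). Akap13, the most abundant, had a log2 fold change of -0.01 (SE 0.05, edgeR adjusted p = 0.944). Abcc5, a transporter that can export cyclic nucleotides, rose, with 229 ± 5.17 CPM (SD) over the 3 Con libraries and 279 ± 12.5 CPM over the 3 Van libraries, a log2 fold change of 0.28 (SE 0.06, edgeR adjusted p = 0.0431), and Abcc4, its relative, was at a log2 fold change of -0.06 (SE 0.09, edgeR adjusted p = 0.816). Of 7 genes of the cGMP branch, only the subunits of soluble guanylate cyclase, listed in the tables as Gucy1a3 and Gucy1b3, had enough counts to be tested. They averaged at most 0.684 CPM in a group, Gucy1b3 having the higher FPKM, and neither was called by edgeR, DESeq2 or limma (0 at an unadjusted p under 0.05).

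**Figure D4:**
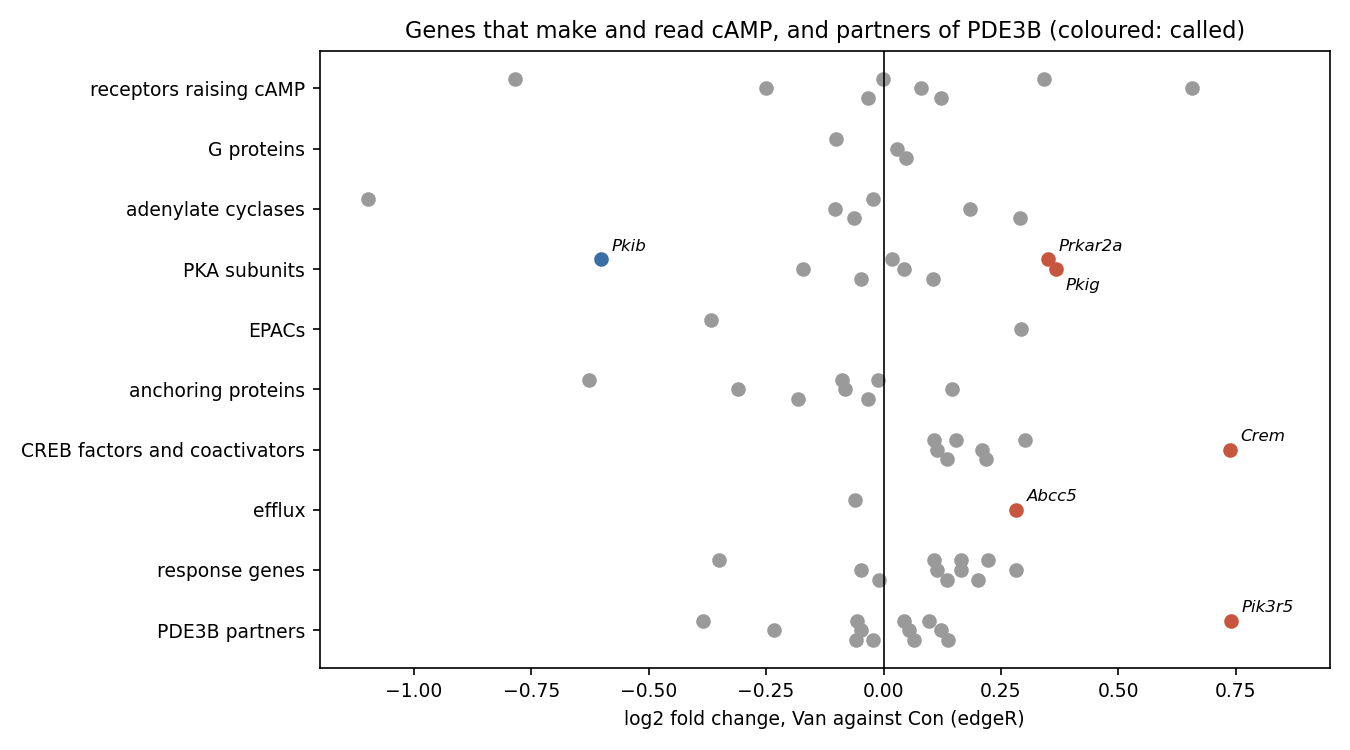
Log2 fold change of Van against Con (horizontal axis, edgeR) of each tested gene of the cAMP lists, with a dot per gene and a row per role. A further row holds the genes listed as partners or regulators of PDE3B or of the kinases that act with it. Red dots were called higher, blue dots lower, and grey dots were not called; Pik3r5 and Crem lie farthest to the right, both at 0.74.

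Genes listed for this work as partners or regulators of PDE3B or of the kinases that act with it were examined next. Of 14 such genes, 13 were tested and 1 was called by each of edgeR, DESeq2 and limma on log2(FPKM + 1) values, Pik3r5, against 2.00%, 7.53% and 0.243% of all genes. Pik3r5, on chromosome 11 from 68432121 to 68497849, encodes p101, an adaptor of phosphoinositide 3-kinase gamma. It was measured at 198, 207 and 192 CPM in Con (replicates 1 to 3) and 342, 321 and 334 CPM in Van (replicates 1 to 3). The groups were far apart, with a mean of 199 ± 7.41 CPM (SD) over the 3 Con libraries and 333 ± 10.8 CPM over the 3 Van libraries and a log2 fold change of 0.74 (SE 0.06, edgeR adjusted p = 0.00160). Its adjusted p from edgeR was at most 0.0239 in the 6 fits that left out a library, and the call was lost with limma on log2(FPKM + 0.1) values (limma adjusted p = 0.0962). Pik3r6, which encodes the alternative adaptor p84, was at 59.8 ± 1.64 CPM (SD) over the 3 Con libraries and 61.6 ± 8.41 CPM over the 3 Van libraries and Pik3cg, the catalytic subunit, at 187 ± 7.79 CPM (SD) over the 3 Con libraries and 180.3 ± 5.24 CPM over the 3 Van libraries, each with overlapping groups. Akt1, the most abundant gene of this group, had a log2 fold change of -0.02 (SE 0.06, edgeR adjusted p = 0.898), and Insr, the insulin receptor, 0.14 (SE 0.08, edgeR adjusted p = 0.465).

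The genes whose levels followed Pde3b most closely were sought among 12588 genes at a mean of 1 CPM or more, leaving out Pde3b itself and repeated symbols, by Pearson's correlation of log2 CPM over the 6 libraries. The 5 highest were Pik3r5 (r = 0.998), Pnpla6 (0.997), Gm6335 (0.996), Samd1 (0.994) and Pde8a (0.994). With 3 libraries on each side and a large difference between the groups, such values mostly mark genes with a clean difference between Con and Van, and they are given as a description. After the group means were subtracted, the correlation with Pde3b was 0.85 for Pik3r5, 0.84 for Gm6335, 0.68 for Pde8a, 0.61 for Pnpla6 and 0.57 for Samd1, over the same 6 libraries, where both genes of a pair share each library's depth and preparation. The genes were picked for a high correlation over these same libraries, which favours deviations of the same sign, so these values support nothing further. Pde3b itself differed more than any of the 5, whose log2 fold changes ran from 0.50 for Pnpla6, a lysophospholipase, to 1.00 for Gm6335, which was near 1 CPM in Con. The 5 genes most unlike Pde3b were Gtpbp1 (r = -0.996), Cyfip1 (-0.995), Ifitm6 (-0.995), Herc3 (-0.992) and Smarcal1 (-0.991). Their correlations after subtraction of the group means were -0.76, -0.41, -0.02, -0.74 and -0.67, in the same order, with the opposite sign favoured by the choice. Ifitm6 had the largest difference of these, with means of 228 CPM (Con) and 153 CPM (Van), and the exons of Gtpbp1 and Cyfip1 overlap those of genes on the opposite strand.

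**Figure D5:**
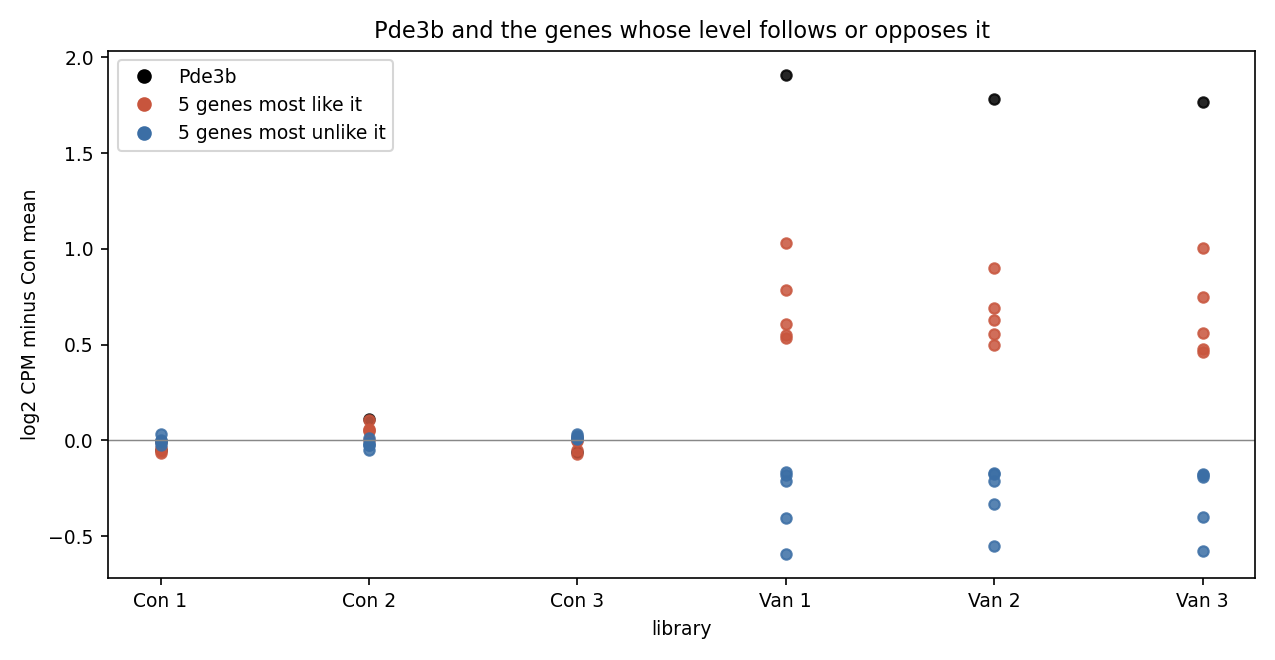
Log2 CPM minus the Con mean (vertical axis) in each library for Pde3b (black), the 5 genes most like it (red) and the 5 most unlike it (blue), with a dot per gene and library. In Van, Pde3b lies above all of the red genes, the highest of which, Gm6335, is at about 1.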

How the data were processed

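Splenic monocyte polyA RNA libraries (3 Con, 3 Van) were analysed. The authors aligned the reads to GRCm38 with HISAT2 2.2.1, made FPKM values with StringTie 2.1.3 and Ballgown, and converted these to gene counts with tximport. The deposited expected counts are estimates that are not whole and not scaled to library size, and the deposited FPKM values were scaled by the authors to library size and transcript length. The libraries were made with a strand-specific kit, but neither the annotation release nor the strand setting in counting is stated. The study's text names another deposit, and these libraries were matched to its Con and Van groups by treatment.

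The expected counts were rounded and tested in R 4.3.3 with edgeR 4.0.16 (TMM, expression filter at a minimum count of 10, quasi-likelihood test on group alone). Benjamini-Hochberg adjustment ran over all genes tested, with calls made at 0.05 or below. Standard errors and 95% intervals come from this fit. Libraries of a group differed by more than counting noise (chi-square per gene of at least 20.7 between any pair). DESeq2 1.42.0 and limma 3.58.1 on quantile-normalized log2(FPKM + 1) values were alternatives, and all were tested on simulated data. Positions and transcripts are from GENCODE M21, which held all 10 members. The members, the gene lists (cAMP pathway, PDE3B partners, cGMP genes, further phosphodiesterases and cell type markers) and the rule for naming genes were chosen with earlier results of these data known. The rule takes every member, every called gene and the most abundant gene of each pathway list, and the 5 genes most like and most unlike Pde3b. Further genes (Pde8b, Pde6d, Adrb1, Hrh2, Akap12, Abcc4, Pik3r6, Pik3cg and Insr) were chosen after their values were seen. Counts over the cAMP lists leave out 1 gene that is not reported here.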

Additional observations from a re-analysis of the deposited data

How the results depend on the processing

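Counts of calls moved with the test and with single libraries. Over all genes, the count was 322 with edgeR (174 higher and 148 lower in Van), 1026 with DESeq2 (519 higher), 39 with limma on log2(FPKM + 1) values (28 higher), 4 with a pseudocount of 0.1 (3 higher), and 21 to 136 when a library was left out (136, 50 and 22 without Con replicates 1, 2 and 3, and 116, 21 and 93 without Van replicates 1, 2 and 3). Of the members other than Pde3b, 2 were called, against 1 and 0 with limma at the pseudocounts 1 and 0.1 (4 and 3 at an unadjusted p under 0.05) and 0 to 1 with a library left out (0 without Con replicate 3 and without Van replicate 2, each with 3 at an unadjusted p under 0.05 from edgeR). Of the cAMP genes, 5 were called, against 8 with DESeq2, 0 with limma at both pseudocounts (16 and 12 at an unadjusted p under 0.05) and 0 to 1 with a library left out (15 to 21 at an unadjusted p under 0.05 from edgeR). The single gene that remained was Crem, without Con replicate 1. Scaling by RLE or by library size alone, dropping the filter, asking for at least 10 counts in every library, counts scaled to an estimated fragment number and a single identifier per symbol kept these 3 numbers within 1.5 times. The log2 fold change of Pde3b was 1.43 with limma on log2(FPKM + 1) values, a scale that shrinks low levels, and stayed between 1.77 and 1.88 with a library left out. The log2 fold change of Pde4a changed sign in 1 of these fits, to -0.022 without Con replicate 3, and reached 0.20. The rank of Pde3b in Con was 7 in every alternative run. The cause of these differences was not tested.

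The labels give both groups the replicate numbers 1 to 3. Over all genes tested, same-numbered libraries did not deviate together from their group means (correlations of 0.0253, -0.0019 and -0.0726). The labels do not say whether a number marks a shared cage or day, and these correlations cannot settle it. With the replicate number as a block, 110 genes were called (66 higher), 2 of the members other than Pde3b (Pde8a and Pde2a) and 1 cAMP gene, Crem. The block lowered the standard error of the log2 fold change from 0.16 to 0.07 for Pde4b and from 0.17 to 0.07 for Pde2a. For Pde3a, Pde3b, Pde4d, Pde7b and Pde8a the standard error was higher with the block. Pde3a had at most 29.4 and Pde4c at most 15.5 estimated counts in a library, and the standard error of Pde3a's log2 fold change was 0.61.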
